A study of Mus musculus with 10 samples.

Results

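The inner root sheath genes are the 6 genes Krt25, Krt27, Krt28, Krt71, Krt73 and Tchh, which were taken from the count tables by their symbols. All 6 were listed in every library, among 32285 genes at embryonic stages E15.5 and E17.5 and among 27998 genes at E16.5. They were chosen by their UMIs, positive cells and CPM in these same libraries, above all at E17.5, so the levels and differences below are descriptions, and no test was made on the 6 genes themselves.

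RNA was counted in single cells from dissociated back skin of mouse embryos of mixed C57Bl/6J and CD-1 background, with both sexes used. At E15.5 there were 2 control libraries (replicates 2 and 3) and 2 MOF cKO libraries (replicates 5 and 6), at E16.5 there were again 2 control and 2 MOF cKO libraries (replicates 1 and 2 of each), and E17.5 was represented by a single control library and a single QPC cKO library. MOF cKO embryos carried floxed alleles of Mof (gene symbol Kat8), which encodes the acetyltransferase of lysine 16 on histone H4, together with K14Cre, a Cre recombinase under the keratin 14 promoter. QPC cKO embryos carried floxed alleles of Uqcrq, a subunit of respiratory complex III, with the same Cre. Controls are named only as such in the labels, which give no alleles for them. Cre under this promoter acts in the epithelium, so fibroblasts and other dermal cells of the cKO skin keep the floxed gene, and the study describes MOF cKO replicate 6 at E15.5 as mosaic. Per the labels, each of the 3 stages used its own version of the kit, so stage and kit cannot be told apart, and levels are compared only within a stage.

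The inner root sheath is the sleeve of cell layers that surrounds and shapes the growing hair shaft and that later breaks down to free it. Its cells descend from the matrix at the base of the follicle. Krt25, Krt27 and Krt28 encode type I keratins, Krt71 and Krt73 encode type II keratins, and one keratin of each type pairs to build the filaments of these layers. Tchh encodes trichohyalin, a large arginine-rich protein that is cross-linked to those filaments by transglutaminases after its arginines are converted by peptidylarginine deiminases. In mouse back skin the first follicles are laid down before E15.5 and grow down in the following days, so an inner root sheath is a structure of the later of these stages.

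In the GRCm38 build (GENCODE annotation), the type I genes lie side by side on the minus strand of chromosome 11. Krt25 spans chr11:99315516-99322951, Krt27 chr11:99345565-99351104 and Krt28 chr11:99364872-99374903, within 59388 bases, with Krt26 between Krt25 and Krt27 and the epidermal keratin gene Krt10 10350 bases beyond Krt28. The type II genes lie on the minus strand of chromosome 15, Krt71 at chr15:101733949-101743109 and Krt73 at chr15:101793308-101802346, separated by 50198 bases that hold Krt72 and the pseudogene Krt74. Tchh lies on the plus strand of chromosome 3 at chr3:93442330-93449077 and has 2 exons, against 8 in each of the type I members and 9 in each of the type II members. All 6 are protein coding.

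The members were not all found in the same cells, and the 250 bases before the start of 4 of them are printed, 5′ to 3′ on the gene's own strand, from RefSeq on GRCm38.p6. Krt28 is the keratin member with the most UMIs in QPC cKO cells, Krt27 is its neighbour, Krt73 is a type II gene whose highest counts lay in other cells, and Tchh is the gene found far beyond the hair follicle. Capitals mark TATAAA (the TATA box), AGATAA (the site of GATA factors) and CTTTGA or its reverse complement TCAAAG (a TCF/LEF site). The windows are chr11:99374904-99375153 for Krt28, chr11:99351119-99351368 for Krt27, chr15:101802361-101802610 for Krt73 and chr3:93442080-93442329 for Tchh.
Krt28: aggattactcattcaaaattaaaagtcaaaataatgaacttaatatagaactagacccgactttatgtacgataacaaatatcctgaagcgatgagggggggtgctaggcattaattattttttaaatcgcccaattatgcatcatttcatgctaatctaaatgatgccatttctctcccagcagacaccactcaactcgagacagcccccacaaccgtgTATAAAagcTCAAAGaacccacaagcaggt
Krt27: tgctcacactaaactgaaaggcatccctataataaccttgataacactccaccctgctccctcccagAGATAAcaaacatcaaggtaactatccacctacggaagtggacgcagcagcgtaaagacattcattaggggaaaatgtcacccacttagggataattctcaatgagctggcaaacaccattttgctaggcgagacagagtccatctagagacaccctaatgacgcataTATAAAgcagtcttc
Krt73: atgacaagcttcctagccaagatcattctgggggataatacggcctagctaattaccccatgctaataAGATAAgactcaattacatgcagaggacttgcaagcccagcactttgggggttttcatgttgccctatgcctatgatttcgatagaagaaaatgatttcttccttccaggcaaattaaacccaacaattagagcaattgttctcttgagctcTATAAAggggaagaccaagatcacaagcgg
Tchh: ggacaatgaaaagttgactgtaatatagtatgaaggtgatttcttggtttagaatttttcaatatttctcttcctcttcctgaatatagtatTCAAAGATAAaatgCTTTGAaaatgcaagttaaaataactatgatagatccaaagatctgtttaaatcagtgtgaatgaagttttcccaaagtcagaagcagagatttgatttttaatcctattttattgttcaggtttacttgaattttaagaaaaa
Searched on both strands, TATAAA was found in the windows of all 5 keratin genes, 15 to 40 bases before the start, and not in that of Tchh. It occurs in 12.4% of the 32851 gene windows of this length. AGATAA was found in 5 of the 6 members, all but Krt28, and in 9.99% of the windows. CTTTGA was found in Krt28, 21 bases before the start, and in Tchh at 158 and 144 bases, and in 13.8% of the windows. In Tchh the first CTTTGA match and AGATAA overlap. A second TCF/LEF form, CTTTGNT, was found in Krt25 and Krt71 (16.0% of windows), the E-box CACCTG in Krt71 (17.2%) and the posterior HOX form TTTATG in Krt28 (10.8%). No member held TGANTCA (AP-1, 6.75%), GCCNNNGGC (AP-2, 13.7%), CACGTG (an E-box, 6.02%) or GGGCGG (a GC box, 32.7%). These matches describe letters and not bound sites.

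Kept cells had more than 1000 but fewer than 6000 detected genes and less than 10% of UMIs (unique molecular identifiers, counted molecules) from mitochondrial genes, and epithelial cells were gated by 10 or more UMIs of Krt5 and Krt14 together. Levels are UMIs of a gene per 1000000 UMIs of the cells concerned (counts per 1000000, CPM). The libraries held 13609345 to 203392303 UMIs, and the gate held 2635 and 2896 control and 1061 and 1648 MOF cKO cells at E15.5, 266 and 512 control but only 30 and 39 MOF cKO cells at E16.5, and 3069 control and 1162 QPC cKO cells at E17.5. At E17.5 this gate did not hold keratinocytes alone. Krt5 UMIs were found in 98.0% of all kept control cells and 87.7% of kept QPC cKO cells, and the gated control cells held 25060 CPM of the collagen genes Col1a1, Col1a2 and Col3a1, against 3897 in QPC cKO and 590 to 6661 in the E15.5 and E16.5 libraries. The E17.5 values are therefore also given for strict keratinocytes, gated cells with more Krt5 and Krt14 than collagen UMIs, of which there were 1647 in the control and 1046 in QPC cKO with 439 and 261 collagen CPM.

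The 2 E17.5 libraries also shared 1702 cell barcodes, 20.7% of the barcodes of the smaller library, whereas the other 44 pairs of libraries shared at most 0.746%. For a shared barcode, the library with more UMIs held a median of 71.5 times as many as the other (quartiles 68.4 and 76.3), and the larger count was in the control for 1368 barcodes and in QPC cKO for 334. Only 7 shared barcodes passed the filter in both libraries. Among gated cells, 99 of 3069 control and 10 of 1162 QPC cKO cells had a shared barcode, and none of the UMIs of the 5 keratin members in gated cells came from them.

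The targeted genes were read first. Uqcrq measured 106 CPM in gated E17.5 control cells and 43.9 in QPC cKO cells, and 129 against 36.0 in strict keratinocytes. In gated cells Kat8 measured 13.0 and 14.0 in the E15.5 control and 13.0 and 10.0 in MOF cKO, which overlap. In gated E16.5 cells it measured 17.6 and 14.8 in the control against 8.66 and 3.75 in MOF cKO on only 5 and 3 UMIs. The deleted exons are not given in the sources used here, and a tag at the 3′ end may lie outside them, so the Kat8 level at E15.5 checks no label.

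Among gated cells the 5 keratin members were close to absent at E15.5 and E16.5. Tchh made up 91.8% to 97.8% of the UMIs of the 6 genes in gated E15.5 cells. At E16.5 the keratins gave 8 of 40 and 14 of 137 UMIs in gated control cells and 2 of 12 and 0 of 13 in MOF cKO. Together the 6 genes measured 38.5 and 36.1 CPM in gated E15.5 control cells and 29.5 and 37.4 in MOF cKO. Over all kept E15.5 cells they measured 23.2 and 25.1 against 23.6 and 24.3. In gated cells at E16.5 they measured 10.4 and 18.1 in the control and 20.8 and 16.2 in MOF cKO. The groups overlapped at both stages, but at E16.5 the overlap rested on 1 cell of control replicate 2. Without the cell with the most member UMIs in each library, the E16.5 values were 9.11 and 8.61 in control skin and 18.1 and 14.6 in MOF cKO, and over strict keratinocytes they were 15.6 and 9.13 against 20.8 and 16.2, so that in both readings the MOF cKO libraries lay above the controls on at most 13 UMIs each. Over all kept cells the order turned, at 6.86 and 8.07 in control skin and 5.74 and 4.96 in MOF cKO. With a gate of 5 UMIs the groups overlapped (7.29 and 12.6 against 12.3 and 13.3). At E17.5 the sum over gated cells was 44.1 in the control and 31.7 in QPC cKO, and 29.5 and 18.3 of this came from the 5 keratins.

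**Figure D1:**
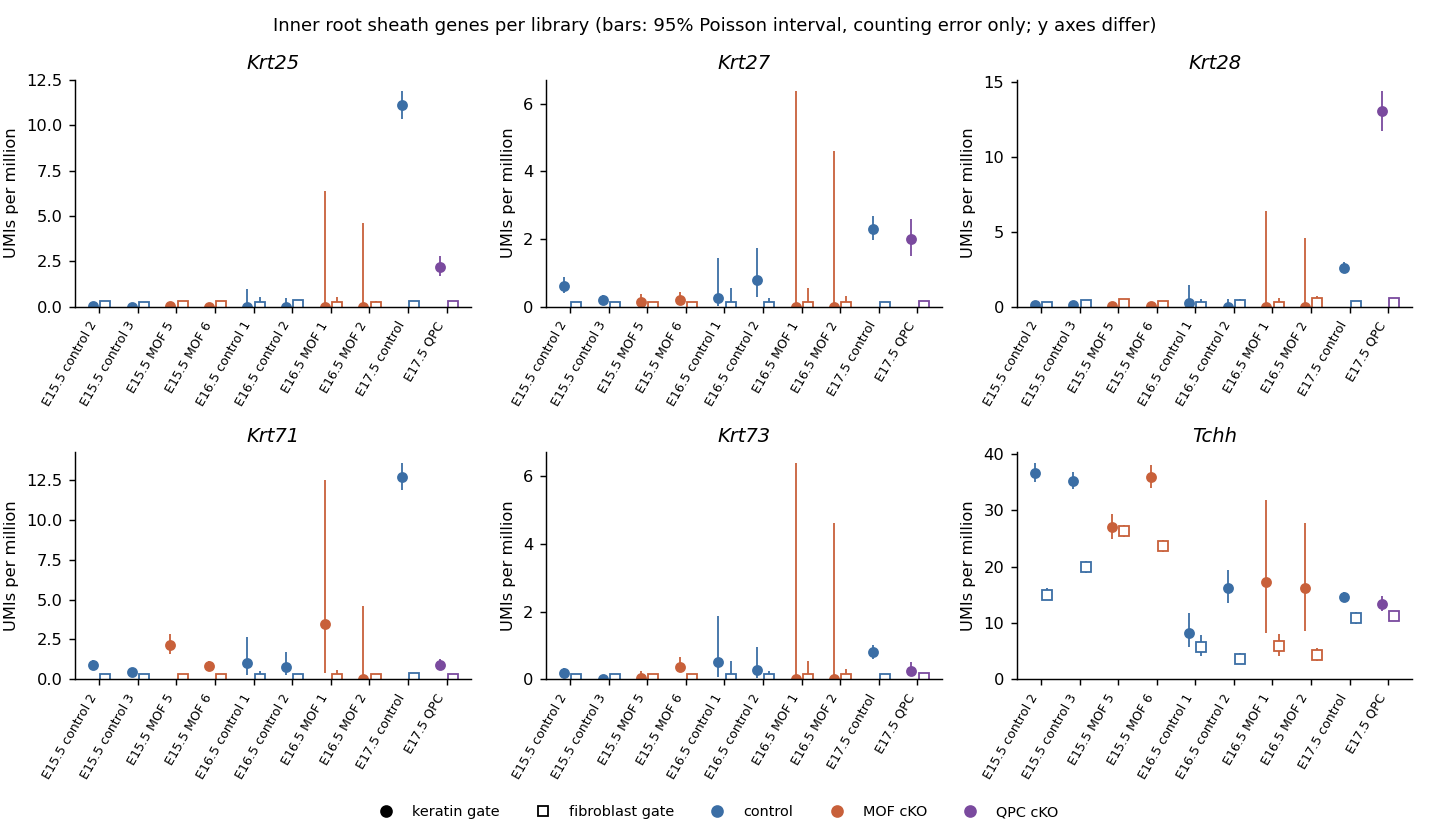
Each panel plots 1 member in the 10 libraries, as CPM on a linear axis of its own, in gated epithelial cells (filled circles) and fibroblast-gated cells (open squares), coloured by group, with 95% Poisson intervals that cover counting error only. In gated epithelial cells Tchh lies between 8.30 and 36.7 in every library. At E17.5 the Krt25 and Krt28 points of each library lie above 1 CPM, but most rest on 1 cell. Without each library's top cell for the gene, Krt25 falls to 0.0685 (control) and 0.664 (QPC cKO). Krt28 then falls to 0.644 in the control and stays at 10.6 in QPC cKO. Levels are to be read within a stage only.

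Among the type I keratins at E15.5, Krt27 gave 27 and 11 UMIs in gated control cells and 3 and 7 in MOF cKO, 0.595 and 0.191 against 0.132 and 0.203 CPM. Krt28 gave 4 and 5 UMIs against 1 and 2, and Krt25 2 and 0 against 1 and 0. These levels amount to at most 27 molecules in the gated cells of a library, and the groups overlap for Krt25 and Krt27. Krt28 came at 0.0881 and 0.0868 CPM in gated control cells and 0.0440 and 0.0580 in MOF cKO, with Poisson intervals that overlap widely. Over all kept cells it gave 4 and 13 UMIs in control skin and 19 and 12 in MOF cKO, so the groups overlapped. Fibroblast-gated cells (under 10 UMIs of Krt5 and Krt14 and 50 or more collagen UMIs) held 0, 6, 15 and 5 Krt28 UMIs in these 4 libraries, 0 and 0.0889 CPM in control skin and 0.168 and 0.0524 in MOF cKO. Krt27, in contrast, gave no UMI in fibroblast-gated cells of any E15.5 or E16.5 library.

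Krt27-positive epithelial cells at E15.5 differed from the other gated cells in the same direction in all 4 libraries. They held more UMIs of the outer root sheath and companion layer genes, a list of 10 that includes Sox9, Krt17 and Lhx2. In CPM these sums were 2745 against 910 and 2792 against 796 in the controls, and 2080 against 963 and 1507 against 521 in MOF cKO. The sums were not split by gene. The study reads Krt17 as a hair germ marker in control skin but as a sign of stress response in MOF cKO. They held fewer UMIs of 12 genes of epidermal differentiation such as Krt1, Krt10 and Lor, with 1287 against 2382 and 1125 against 3508 in control skin and 263 against 3383 and 853 against 2899 in MOF cKO. These values rest on 24 and 10 control and 2 and 7 MOF cKO cells.

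Of the type II keratins, Krt71 was the most frequent at E15.5, with 40 and 28 UMIs in gated control cells and 49 and 28 in MOF cKO. This came to 0.881 and 0.486 against 2.16 and 0.812 CPM, so the groups overlap and replicate 5 stood highest. Krt71 was found in 1.52% and 0.932% of control cells, against 4.05% and 1.52% of MOF cKO cells, and after each cell was thinned to 5000 UMIs in 0.533%, 0.173%, 1.62% and 0.305%. Fibroblast-gated cells held at most 1 Krt71 UMI per E15.5 library. Krt73 gave 8 and 1 UMIs in gated control cells and 1 and 13 in MOF cKO, and 10 of the 13 came from 1 cell of replicate 6.

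Tchh behaved unlike the keratins. At E15.5 it measured 36.7 and 35.3 CPM in control epithelial cells and 27.1 and 36.0 in MOF cKO, in 37.0% and 40.4% of control cells, and in 37.0% and 40.7% of the MOF cKO cells. The groups overlap. Fibroblast-gated cells held 15.1 and 19.9 CPM in control skin and 26.4 and 23.7 in MOF cKO, in 13.8%, 19.8%, 21.8% and 21.4% of cells at median depths of 11261 to 13338 UMIs, against 16053 to 20210 in the epithelial gate. Thinned to 5000 UMIs per cell, Tchh was found in 14.3% and 14.6% of control and 11.1% and 13.8% of MOF cKO epithelial cells and in 6.61%, 8.96%, 10.6% and 9.87% of fibroblast-gated cells.

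The level of Tchh varied between the other skin cell types. Cells with 10 or more UMIs of the muscle markers Myog, Myod1, Des and Acta1 held 25.1 and 55.7 CPM in E15.5 control skin and 37.5 and 32.3 in MOF cKO, on 48 to 142 cells per library. Cells with immune markers held 0.808 to 3.18, those with melanocyte markers 0 to 3.22, those with endothelial markers 2.94 to 9.74 and those with Schwann cell markers 5.36 to 8.88. Muscle-marker and fibroblast-gated cells thus lay above the other 4 types in all 4 libraries. Tchh UMIs were present outside the epithelium in all 10 libraries. Free RNA also gives UMIs in droplets of other cells, and at E17.5 Krt5 was found in 95.7% of fibroblast-gated control cells and 85.5% of those of QPC cKO. Cells with immune markers held 0.249 and 0.980 CPM of Tchh in these libraries, against 10.8 and 11.2 in fibroblast-gated cells. The part of free RNA in the Tchh UMIs outside the epithelium was not tested.

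At E16.5 the keratin members gave 0 to 6 UMIs in the gated cells of a library. Krt71 gave 4 and 6 UMIs in gated control cells and 2 and 0 in MOF cKO, and Krt27 1 and 6 against 0 and 0. Krt73 gave 2 and 2 against 0 and 0, Krt28 1 and 0 against 0 and 0, and Krt25 none. In the gated MOF cKO cells a count of 0 allows up to 3 UMIs, or 5.19 and 3.75 CPM, so a difference was not detectable at this depth. Over all kept cells Krt28 gave 2 and 2 UMIs in control skin and 0 and 4 in MOF cKO. Krt25 gave 1 UMI in kept cells of control replicate 2. In gated cells Tchh measured 8.30 and 16.2 in the control and 17.3 and 16.2 in MOF cKO, the latter on 10 and 13 UMIs. Of the 123 Tchh UMIs of control replicate 2, 72 came from 1 cell that also held 45 UMIs of the simple epithelial keratin gene Krt8 and 18 of Lor. Among strict keratinocytes, which leave this cell out, Tchh measured 7.16 CPM in that library.

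Other genes of the hair follicle were read from the edgeR quasi-likelihood test of MOF cKO against control, 2 libraries against 2, on UMIs summed per library over the gated cells. At E15.5 none of 14625 genes passed a Benjamini-Hochberg adjusted p of 0.05, so that 0% were higher and 0% lower, while 1360 had an unadjusted p under 0.05. DESeq2 called 140 genes. Without MOF cKO replicate 6 edgeR called 7015, in a fit that leaves 1 MOF cKO library and assumes that it varies as the 2 controls do. The median log2 fold change was 0.18 over 8 tested inner root sheath genes other than the members, -0.14 over 5 hair matrix and shaft genes, -1.03 over 9 outer root sheath genes and -0.40 over 15 placode and germ signals, against -0.01 over all genes. Krt71 and Tchh passed the filter on low counts at E15.5 and Tchh alone at E16.5.

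At E16.5, 4.68% of 9938 tested genes were higher in MOF cKO and 1.14% were lower, 465 and 113 genes. With library sizes alone in place of TMM factors the split was 263 higher and 549 lower. The CPM given beside the log2 fold changes are scaled to library totals, whereas the fold changes use TMM factors, so they differ. The count was 39 without MOF cKO replicate 1, 175 without replicate 2 and 1112 without control replicate 2, and the MOF cKO sums rest on 30 and 39 cells. Of the 6 tested inner root sheath genes other than the members, 3 were higher and none lower (median log2 0.96, all genes -0.11). Dsc2, a desmosomal cadherin, measured 1.82 and 1.19 CPM in control skin and 90.0 and 58.7 in MOF cKO (log2 fold change 6.24 ± 0.45 SE, edgeR adjusted p 0.0044). Tgm3, a transglutaminase that cross-links trichohyalin, measured 1.56 and 1.58 against 45.0 and 46.2 (5.39 ± 0.40, edgeR adjusted p 0.0044). Ovol1, a transcription factor of differentiating epidermis and follicles, measured 18.4 and 11.9 against 38.1 and 30.0 (1.79 ± 0.37, edgeR adjusted p 0.0445). Dsc2 and Tgm3 kept their calls in 13 of 13 other settings, and Ovol1 lost its call in 4. Among these 4 were library sizes alone (Ovol1 log2 fold change 1.16, edgeR adjusted p 0.108). All 3 are also genes of the differentiating epidermis, where 3 of 10 tested genes were higher and 1 lower. Other markers also varied in the same gated cells. Dermal fibroblast genes summed to 8662 and 2111 CPM in the control and 845 and 1201 in MOF cKO, and proliferation genes to 1553 and 1208 against 199 and 484. Immune genes summed to 102 and 26.1 against 46.7 and 205, so that the groups overlapped. The part of these lists in the calls was not tested.

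The other follicle lists showed few calls at E16.5. Among 8 tested outer root sheath genes, the stress and follicle keratin gene Krt17 was higher, at 1016 and 1111 CPM in control skin and 4813 and 3255 in MOF cKO (2.53 ± 0.42, edgeR adjusted p 0.0273). The Krt17 call was lost in 3 of 13 other settings. Lhx2, a transcription factor of follicle progenitors, was lower (log2 fold change -4.55, edgeR adjusted p 0.0356). It gave 135 of 3853694 and 142 of 7576619 UMIs in gated control cells, and 0 of 577644 and 1 of 800201 in MOF cKO. The Lhx2 call was lost in 5 of 13 other settings. None of 3 hair matrix genes and none of 13 placode and germ signals passed the test in either direction, with medians of -1.76 and -0.76. These sums cover few cells.

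At E17.5 the keratin members gave 7 to 928 UMIs in the gated cells of a library. Since there was 1 library per group, no test was made and the intervals cover counting error only. Read over all gated cells, Krt25, Krt71 and Krt73 were higher in the control, Krt28 was higher in QPC cKO, and the intervals of Krt27 and Tchh included equal levels. For Krt25, Krt27 and Krt71 these readings rested on 1 control cell, described next. Genes with 100 or more UMIs in either library numbered 13024, of which 1.47% were over 2-fold higher in QPC cKO and 13.6% over 2-fold lower. In strict keratinocytes these shares were 1.21% and 3.46% of 11366 genes, and 5 of the 6 members reached 100 UMIs. In both sets of cells Krt28 was on the higher side and Krt25 and Krt71 on the lower side. The choice of the genes used this contrast, so nothing is read from that count.

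A single control cell carried most of the control signal. It held 2003 UMIs of the 6 genes, 62.2% of those in all gated control cells and 6.17% of its own 32466 UMIs. These were 890 of Krt71, 807 of Krt25, 148 of Krt27, 142 of Krt28, 12 of Tchh and 4 of Krt73. It had 5299 detected genes, 3.31% mitochondrial UMIs and a barcode found in the control only. It also held 28 UMIs of Cux1 and 22 of Gata3, both regulators known from the inner root sheath, 30 of the homeobox gene Dlx3, 25 of Ovol1 and 11 of Msx2, and no UMI of the shaft keratin gene Krt35 or of Hoxc13. Of genes from the other follicle lists it held 19 UMIs of Krt79 (outer root sheath and companion layer), 8 of Shh and 3 of Foxn1, and none of Krt17 or Sox9. No other cell of the 10 libraries held 3 or more UMIs each of the type I members, of the type II members and of Tchh. Its Krt5 and Krt14 counts were 18 and 3.

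Krt25 gave 812 UMIs in 5 gated control cells and 63 in 6 QPC cKO cells, or 11.1 against 2.20 CPM (log2 ratio of QPC cKO to control -2.34, 95% interval -2.73 to -1.97). All but 5 control UMIs were in the single cell, and without it the ratio turned to 5.0. In QPC cKO 44 of the 63 UMIs were in 1 cell, and without the top Krt25 cell of each library the ratio was 3.28. Over strict keratinocytes it was -3.10. Krt27 gave 168 UMIs in 18 control cells and 57 in 25 QPC cKO cells, 2.30 against 1.99 CPM (-0.21, interval -0.67 to 0.23), and 20 control UMIs without that cell (2.86). Over strict keratinocytes Krt27 measured 4.30 against 2.19 CPM, and that interval did not include equal levels (-0.97, interval -1.43 to -0.53). In both genes the control level thus came from 1 cell, and the remaining control cells lay below the QPC cKO cells.

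Among gated cells, Krt28 was higher in QPC cKO with and without that cell. It gave 189 UMIs in 19 of 3069 gated control cells and 373 UMIs in 25 of 1162 QPC cKO cells, 2.59 against 13.0 CPM (log2 ratio 2.33, interval 2.07 to 2.59). It was found in 0.619% of gated control cells (Wilson interval 0.397 to 0.965) and in 2.15% of QPC cKO cells (1.46 to 3.16), at median depths of 24108 and 25422 UMIs. In fibroblast-gated cells the shares were 0.0577% and 0.493% at median depths of 20195 and 19034. Among strict keratinocytes the log2 ratio was 1.62 (interval 1.36 to 1.89), and without the single control cell it was 4.34 over gated cells and 3.84 over strict keratinocytes. Leaving out shared barcodes gave 2.27 and 1.58. The size of the ratio moved with the choice of cells. Without the single control cell, all 3 type I members were higher in QPC cKO.

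Krt71 gave 928 UMIs in 36 control cells and 25 in 23 QPC cKO cells, 12.7 against 0.873 CPM (-3.86, interval -4.50 to -3.29). Without the single cell, 38 control UMIs remained and the ratio was 0.75 (interval -0.04 to 1.51), so the remaining cells did not differ beyond counting error. Over strict keratinocytes it was -4.61 with the cell and 0.42 without it. Krt73 gave 58 UMIs in 10 control cells and 7 in 5 QPC cKO cells, 0.795 against 0.245 CPM (-1.70, interval -3.08 to -0.57). This difference did not rest on the same cell (-1.60 without it, -2.47 over strict keratinocytes), but it was -0.10 when cells with 6000 or more detected genes were let in, and it turned to 1.09 (interval 0.56 to 1.62) without the mitochondrial limit. Of the 62 Krt73 UMIs that QPC cKO then held, 30 and 25 were in 2 cells with 12.4% and 11.5% mitochondrial UMIs, so the direction of Krt73 depended on that limit. Tchh gave 1066 UMIs in 22.5% of control cells and 383 in 21.3% of QPC cKO cells, 14.6 against 13.4 CPM (-0.13, interval -0.30 to 0.04). In strict keratinocytes it measured 18.1 against 13.6 (-0.40, interval -0.59 to -0.22), and in fibroblast-gated cells 10.8 and 11.2.

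**Figure D2:**
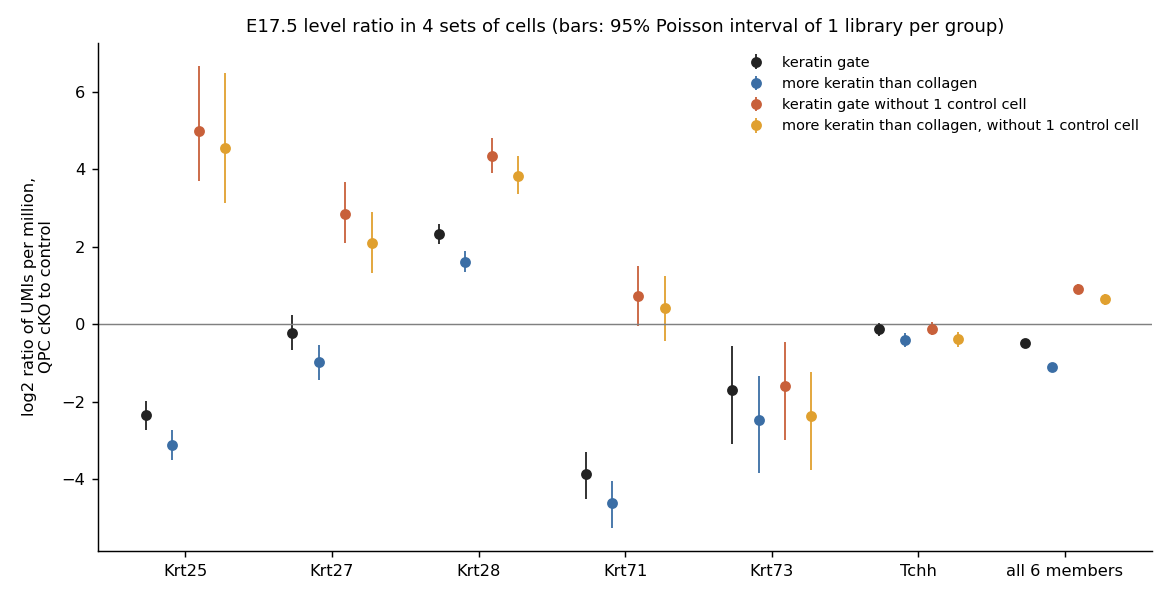
Log2 ratio of CPM, E17.5 QPC cKO to E17.5 control, for each member and their sum, over gated cells and over strict keratinocytes (more keratin than collagen UMIs), each with and without the single control cell, with 95% intervals that cover counting error only. The points of Krt25, Krt27 and Krt71 lie above 0 when that cell is left out, for Krt71 with intervals that include 0, and those of Krt28 lie above 0 in all 4 sets of cells.

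For the 6 genes together, the log2 ratio was -0.48 (interval -0.58 to -0.37) over gated cells and -1.11 over strict keratinocytes, and without the single cell it was 0.93 and 0.65. The direction of the summed level therefore depended on 1 cell of 3069. Without the barcodes found in both libraries it was -0.51 and -1.13.

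The members were concentrated in few cells at E17.5. Among kept cells, 6 of 5353 in the control (0.112%, Wilson interval 0.0514 to 0.244) and 16 of 6118 in QPC cKO (0.262%, 0.161 to 0.424) held 10 or more UMIs of the 6 genes, a difference of 0.149 percentage points between these 2 libraries. The 2 intervals overlapped. The difference depended on the limit, and with 5 or more UMIs there were 33 cells (0.616%) and 39 cells (0.637%). The nearest cells inside and outside this limit held 11 and 8 UMIs in the control and 10 and 9 in QPC cKO. Among strict keratinocytes there were 6 of 1647 (0.364%) and 14 of 1046 (1.34%). None of these kept cells had a shared barcode. In the QPC cKO library 14 of the 16 cells owed this to Krt28 with or without Krt25 and Krt27, and the other two to Tchh. In the control, 4 of the 6 held 10 or more Krt28 UMIs, among them the single cell above, and the other two held 21 and 13 UMIs of Krt73 and of no other member.

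**Figure D3:**
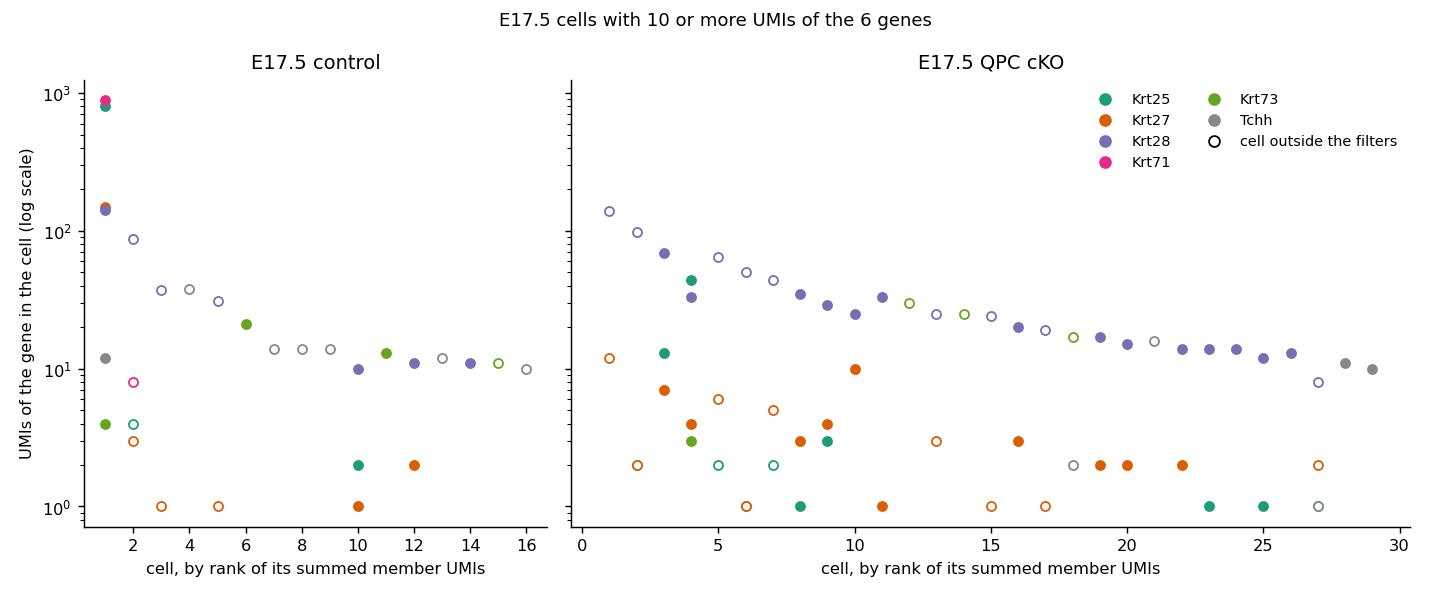
E17.5 cells with 10 or more UMIs of the 6 genes, ranked along the horizontal axis by their summed UMIs, with 1 point per member detected at its UMIs in that cell on a log scale. Filled points are kept cells and open points are cells outside the filters. Of kept cells, the control holds 1 with 2003 UMIs and 5 with 11 to 21, and QPC cKO holds 16 with 10 to 89, mostly of Krt28.

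The QPC cKO cells with the most members held 89 UMIs (69 of Krt28, 13 of Krt25 and 7 of Krt27) and 84 UMIs (44 of Krt25, 33 of Krt28, 4 of Krt27 and 3 of Krt73). Krt28-positive kept cells of QPC cKO, 49 in number, also held Krt27 in 12 cells, Krt25 in 6, Tchh in 3 and Krt71 in none. The 819 Tchh-positive cells of that library held Krt28 in 3. In the control, 23 Krt28-positive cells held Krt27 in 4, Krt25 in 2 and Tchh in 6, and the 988 Tchh-positive cells held Krt28 in 6. Whether Krt27 or Krt25 was found beside Krt28 went with the number of Krt28 UMIs. Of kept cells with 10 or more, 12 of 14 in QPC cKO and 3 of 4 in the control also held Krt25 or Krt27, whereas of cells with 1 to 4 Krt28 UMIs it was 1 of 32 and 1 of 19. Of those 32 and 19 cells, 16 and 1 were fibroblast-gated. Among kept cells without Krt28, Krt25 or Krt27 was found in 17 of 6069 in QPC cKO and 20 of 5330 in the control. Most cells with Tchh held no Krt28.

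Kept cells with 5 or more Krt28 UMIs, 4 in the control and 17 in QPC cKO, were compared with the 1628 and 1018 strict keratinocytes without Krt28 or Krt73 UMIs, as a description. Several transcription factor genes of the matrix and inner root sheath were higher in them in both libraries, and others were not. Cux1 measured 648 CPM in these cells of the control against 66.1 in the others, and 891 against 50.1 in QPC cKO. The homeobox genes Msx2 (269 against 6.12 and 181 against 5.13) and Dlx3 (509 against 17.3 and 156 against 11.9) showed the same order, and so did Hoxc13, a regulator of shaft keratins (449 against 7.18 and 272 against 22.8). In the control cells, 30 of the 51 Dlx3 UMIs were from the single cell with 2003 member UMIs, and 34 of the 45 Hoxc13 UMIs were from 1 other cell. Without the top cell for the gene, Dlx3 measured 310 CPM and Hoxc13 149 in the control, and Hoxc13 measured 169 in QPC cKO. Bmp4, a signal of the matrix, measured 219 against 4.95 and 121 against 5.17.

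Genes of the hair shaft were found in the same cells. Krt35, an early keratin gene of the shaft, was detected in 3 of 4 control and 7 of 17 QPC cKO cells, 778 and 540 CPM, against 0.0259 and 0.118 in the other keratinocytes. Of these Krt35 UMIs, 65 of 78 in the control and 122 of 232 in QPC cKO were in 1 cell, and without it the levels were 176 and 262. Mt4, a metallothionein gene, was detected in 4 of 4 and 14 of 17 cells, 359 and 461 against 0.622 and 0.316. Shh, the signal made in the hair germ and matrix, measured 389 against 37.7 in the control and 430 against 59.9 in QPC cKO, and Lhx2 359 against 61.3 and 395 against 82.2. Gata3 (329 against 203 and 349 against 247, with 22 of the 33 control UMIs in 1 cell and 162 CPM without it) and Lef1 (209 against 209 and 186 against 220) lay much closer to the other cells. Pooled over these cells, Krt28 UMIs therefore came with genes of matrix and shaft as well as of the inner root sheath. Single cells differed. The kept cells with the most Krt28 UMIs, 142 in the control and 69 in QPC cKO, held no UMI of Krt35 or Hoxc13. The kept QPC cKO cell with 122 Krt35 UMIs held 14 of Krt28. The name of the 6 genes does not by itself make the cells with 5 or more Krt28 UMIs inner root sheath cells.

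The same cells held few UMIs of the general epithelial keratins. Krt5 measured 908 and 1207 CPM against 9544 and 7442, Krt14 479 and 551 against 11293 and 8972, Krt15 89.8 and 81.4 against 4114 and 3022, and Krt17 379 and 596 against 2180 and 2661. Sox9, a transcription factor of the outer root sheath, had no UMI in the 4 control cells, and in QPC cKO it measured 11.6 against 138. The proliferation gene Mki67 measured 190 against 86.3 and 300 against 101, and Col1a1 69.8 and 69.8 against 125 and 71.8. A gate on Krt5 and Krt14 thus takes in such cells near its lower edge, and 1 of the 17 QPC cKO cells fell below it.

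**Figure D4:**
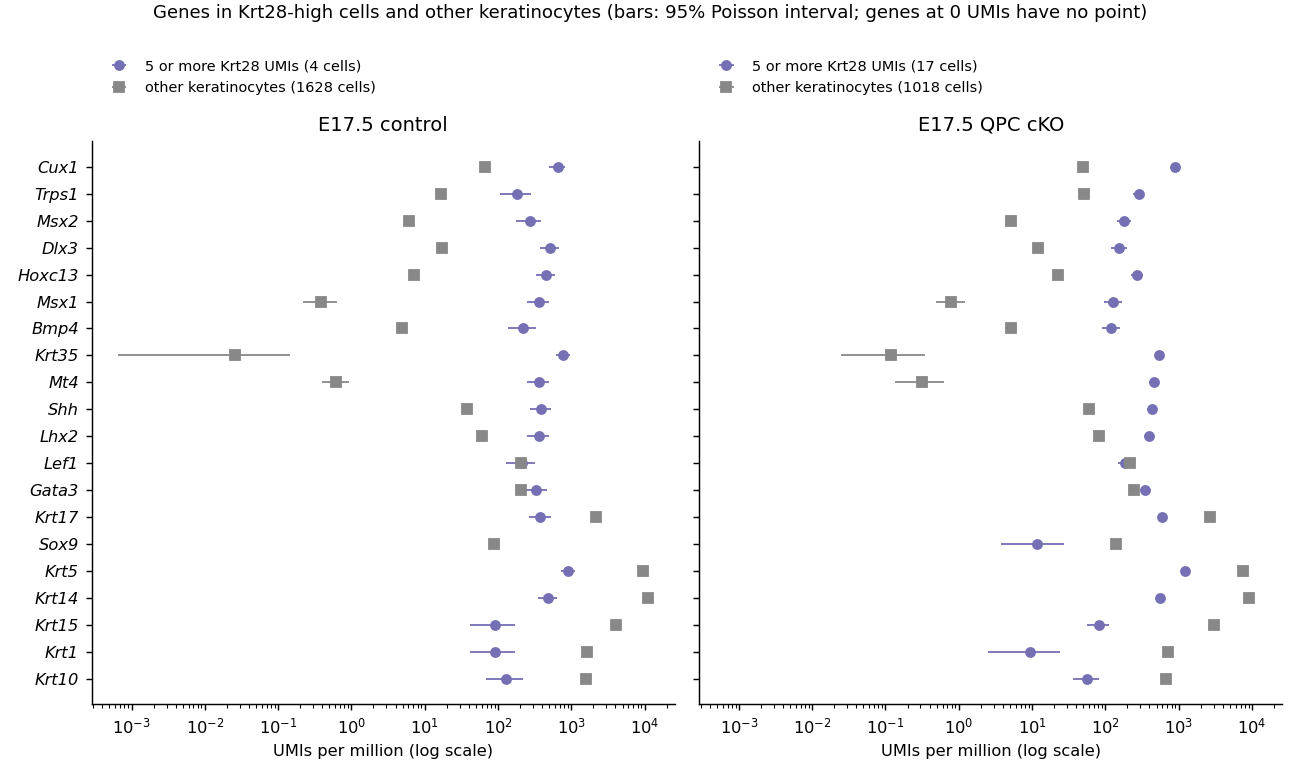
CPM on a log scale of 20 genes in E17.5 cells with 5 or more Krt28 UMIs (circles) and in strict keratinocytes without Krt28 or Krt73 UMIs (squares), with 95% Poisson intervals and no point for a gene at 0 UMIs. Cux1, Msx2, Dlx3, Hoxc13, Krt35 and Mt4 lie to the right of the other cells in both libraries, and Krt5, Krt14, Krt15 and Krt17 to the left.

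Cells with 5 or more Krt73 UMIs were different cells. Of kept cells, 3 in the control and none in QPC cKO held 5 or more Krt73 UMIs (4 and 2 without the upper limit on detected genes). The 3 control cells held 12736 CPM of Krt5, 8162 of Krt17, 520 of Gata3, 329 of Sostdc1 and 205 of Barx2, and no UMI of the other 5 members.

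Uqcrq, the gene targeted in QPC cKO, was not used in choosing the 6 genes, and it was read in the same cells. The classes of cells were set after the data had been seen. In the QPC cKO library Uqcrq was detected in 16 of 17 kept cells with 5 or more Krt28 UMIs (94.1%, Wilson interval 73.0 to 99.0), with a median of 4 and a range of 0 to 12 UMIs per cell. Among strict keratinocytes of that library without UMIs of the 5 keratin members it was detected in 328 of 984 (33.3%, interval 30.5 to 36.3). The levels were 188 (interval 150 to 234) and 32.4 CPM, at median depths of 25673 and 25536 UMIs. Fibroblast-gated cells, in which this Cre does not act, held Uqcrq in 2759 of 3248 (84.9%, 122 CPM), and those of the control in 1234 of 1733 (71.2%, 69.2 CPM). The libraries thus differed in Uqcrq outside the reach of the Cre as well, with QPC cKO higher.

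In the control library Uqcrq was detected in 4 of 4 such cells and in 1447 of 1587 strict keratinocytes without the members (91.2%), at 130 and 129 CPM, values that lie within each other's counting error. With cells of 6000 or more detected genes let in, the QPC cKO count was 26 of 27 cells at 136 CPM, and 19 of 20 after shared barcodes were left out. Without shared barcodes the strict keratinocytes of QPC cKO held Uqcrq in 325 of 977 (33.3%). Uqcrb, another complex III subunit gene that was not targeted, measured 363 in the Krt28 cells and 417 in the other keratinocytes of QPC cKO. With 1 library and 17 cells from it, whether this would recur in other embryos was not tested.

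The limit of 5 Krt28 UMIs bears on this result. Strict keratinocytes with 1 to 4 Krt28 UMIs held Uqcrq in 4 of 8 QPC cKO cells (interval 21.5% to 78.5%, 89.7 CPM) and in 7 of 7 control cells. In follicle cells of QPC cKO without keratin members Uqcrq was lower. It was detected in 8 of 75 strict keratinocytes with 5 or more Shh UMIs and no keratin member (10.7%, 6.13 CPM) and in 20 of 60 with 3 or more Hoxc13 UMIs (33.3%, 29.1). Cells with Tchh but no keratin member held it in 76 of 221 (34.4%), and cells with Krt71 as their only keratin member in 11 of 21 (52.4%, 53.4). In the control the shares were 85 of 91 for the Shh class, 24 of 27 for Hoxc13 and 432 of 450 for Tchh. Krt14, whose promoter drives the Cre, was low in the Krt28 cells of both libraries, and its part in this result was not tested. Strict keratinocytes of QPC cKO with under 100 UMIs of Krt5 and Krt14 and no keratin member held Uqcrq in 96 of 209 (45.9%, 77.6 CPM).

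**Figure D5:**
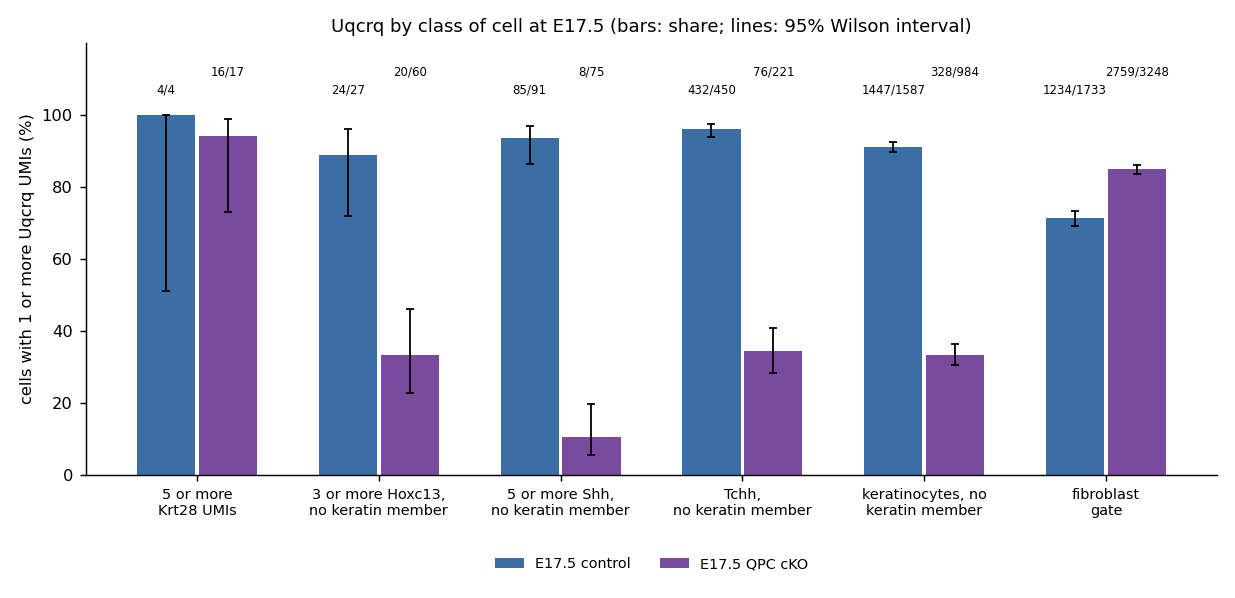
Share of E17.5 cells with 1 or more Uqcrq UMIs by class of cell and library, with 95% Wilson intervals and the counts above the bars. In QPC cKO the bar of the cells with 5 or more Krt28 UMIs (94.1%) stands near that of fibroblast-gated cells (84.9%) and above those of the other keratinocyte classes.

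The genes whose UMIs varied most like the 6 genes together were ranked by Pearson's r over kept cells of log-transformed UMIs per 10000, among genes found in 20 or more cells, and are given as a description since genes of 1 cell share its depth. Over the 5353 control cells they were the kallikrein proteases Klk7 (0.28) and Klk5 (0.21), S100a3 (0.23), Dlx3 (0.20) and Pou3f1 (0.19), followed by Dmkn, Klf5, Dsp, Sfn, Gata3, Perp, Rapgefl1, Dsc3 and Aqp3 at 0.17 to 0.18. Over the 6118 QPC cKO cells the first were Mt4 (0.41), Krt35 (0.28), S100a3 (0.26), Dlx3 (0.25) and Msx2 (0.23). For Krt28 alone Mt4 was first in QPC cKO (0.77), followed by Krt35 (0.54), Msx2 (0.44) and Dlx3 (0.43), and in the control Klk7 and Mt4 (0.50 each) and S100a3 (0.49) led. All 25 Klk7 UMIs of the control cells with 5 or more Krt28 UMIs were in 1 cell. Tchh alone reached 0.17 with Klf5 and Krtdap in the control and 0.18 with Apcdd1 in QPC cKO.

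Other genes of the hair follicle were also unequal between the E17.5 libraries. Over all genes with 100 or more UMIs, 1.47% were over 2-fold higher and 13.6% lower in gated QPC cKO cells. In strict keratinocytes these shares were 1.21% and 3.46%. Of 9 outer root sheath genes with 100 or more UMIs, 6 were over 2-fold higher in gated QPC cKO cells and none lower, among them Tbx1 (log2 ratio 2.20), Pthlh (2.19), Barx2 (1.31), Lhx2 (1.3) and Sox9 (1.23). In strict keratinocytes 4 of 9 were higher, with Lgr5 (2.10), Tbx1 (1.93), Pthlh (1.45) and Nfatc1 (1.0). Of 7 hair matrix and shaft genes, Hoxc13 (2.51) and Krt35 (2.05) were higher and Bmp4 (-1.09) lower, and in strict keratinocytes Hoxc13 (1.77), Trps1 (1.73) and Krt35 (1.37) of 6 were higher. Among 13 placode and germ signals, Fgf20 (1.64), Shh (1.58), Sostdc1 (1.29) and Dkk4 (1.20) were higher over gated cells and none in strict keratinocytes. Of 7 inner root sheath genes other than the members, Gata3 (1.02) and Dsc2 (1.07) were higher over gated cells, and none of 6 in strict keratinocytes. All 6 dermal fibroblast genes were lower in gated QPC cKO cells and none of 5 was in strict keratinocytes. The strict gate itself limits Col1a1, Col1a2 and Col3a1, which belong to this list, so the second count was set in part by the gate. The part of collagen-rich cells in the gated values was not tested. Strict keratinocytes still differed in other markers. In QPC cKO 3 of 4 immune genes were over 2-fold lower (177 against 56.1 CPM for the whole list, control first). So were 2 of 2 endothelial genes (8.81 and 1.96), 1 of 2 muscle genes and 2 of 8 genes of epidermal differentiation. The 1 counted gene of the Merkel and simple epithelial list was over 2-fold higher. The part of these markers in the ratios of the members was not tested.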

How the data were processed

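Back-skin cells were counted in 10 libraries. The deposited values are raw UMI counts per gene and barcode, made by the authors with Cell Ranger (the submitters' processing notes list versions 1.3.1 and 6.1.2, without saying which library each served) on mm10, with barcodes already restricted to called cells. They were not normalised. Here, kept cells had more than 1000 but fewer than 6000 detected genes and less than 10% mitochondrial UMIs, the study's limits, and no doublet caller was run. Epithelial cells were gated by 10 or more Krt5 and Krt14 UMIs, and levels are CPM. Poisson and Wilson intervals (95%) and limits of 3 counts for a count of 0 cover counting error only.

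The members, lists and thresholds were chosen with earlier results of these data known. Named are the 6 members, follicle-list genes past the test (at most 5 per list and stage by p, and at E17.5 at most 5 by size of ratio past 2-fold with 100 UMIs and separate Poisson intervals), the 15 genes most like the summed members in the E17.5 control (of which 1 is not reported here), the gating genes and the targeted genes. Genes chosen after their values were seen are those of the cells with 5 or more Krt28 or Krt73 UMIs and the Uqcrq classes.

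Sums per library were tested with edgeR 4.0.16 (quasi-likelihood, TMM, filterByExpr, Benjamini-Hochberg) in R 4.3.3, with DESeq2 1.42.0 as an alternative, separately at E15.5 and E16.5, after the procedure was tested on simulated data. Counts of cells and levels were computed with Python 3.11.15 and scipy 1.17.1. Libraries of a group are not all said to come from separate embryos, so p-values measure the spread between these libraries, which may be in part technical. The labels give no batch other than the kit.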

Additional observations from a re-analysis of the deposited data

Results flagged for a closer look

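Krt28 was also found in cells that the upper limit of 6000 detected genes leaves out of the comparisons above. In the QPC cKO library, 32 of 1548 cells with 6000 or more genes held 504 Krt28 UMIs, 6.92 CPM (95% Poisson interval 6.33 to 7.55). In the control library 21 of 1597 such cells held 178 UMIs, 2.46 CPM (2.11 to 2.85). Most of these UMIs were in barcodes shared by both libraries, 420 UMIs in 18 cells of QPC cKO and 137 in 17 of the control. Without shared barcodes the order turned, with 84 UMIs in 1245 QPC cKO cells (1.55 CPM, 1.24 to 1.92) and 41 UMIs in 389 control cells (3.07 CPM, 2.20 to 4.17). These are unequal parts, 1245 of 1548 QPC cKO cells but 389 of 1597 control cells, and no keratin gate was applied to the levels of this paragraph. The kept cells hold 50.9% of all Krt28 UMIs of the control library and 44.4% of those of QPC cKO, and for Krt73 in QPC cKO they hold 9.47%. It was flagged because these cells lie outside the main measurement and the level over all of them was above that of the control.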

How the results depend on the processing

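The E17.5 level ratios depended most on which cells were counted. The log2 ratio of the summed 6 genes, -0.48 as reported, was -1.11 with more keratin than collagen UMIs required, -1.13 with shared barcodes left out as well, -1.06 without the gate, -0.35 without the upper limit on detected genes, -0.83 and -1.26 with gates of 5 and 20 UMIs, -1.01 with a 5% mitochondrial limit and -0.69 without Tchh. Without the cell with the most member UMIs it reversed to 0.93, to 0.78 without the top cell of each library, to 0.65 in strict keratinocytes and to 3.03 without Tchh. In the same 2 settings Krt25 reversed to 5.0 and 4.56, Krt27 to 2.86 and 2.10 and Krt71 to 0.75 and 0.42. Without each library's top cell for the gene, they were 3.28, 2.58 and 0.63. Krt73 reversed to 1.09 without the mitochondrial limit. Krt28 kept its direction in 12 of 12 settings, with a ratio that moved in 10. Outside these settings, among cells with 6000 or more detected genes and no shared barcode, Krt28 was lower in QPC cKO (1.55 against 3.07 CPM). The difference in the share of cells with 10 or more member UMIs was 0.974 percentage points among strict keratinocytes, 0.021 and 0.077 with limits of 5 and 20 UMIs, 0.014 with each cell thinned to 5000 UMIs, 0.112 with a 5% mitochondrial limit, 0.123 without the upper limit on detected genes and 0.148 without shared barcodes, and QPC cKO was the higher library in all 7. These 7 settings count overlapping sets of cells, so their shared direction is not independent. Settings on strict keratinocytes, top cells, shared barcodes, no mitochondrial limit and left-out libraries of the summed level were chosen after seeing the data. The summed level at E15.5 (MOF cKO lower by 3.82 CPM on average) was -0.19 without the gate, and ranged from -7.77 to 0.14 with 1 library left out, so that its direction rested on MOF cKO replicate 5. At E16.5 (higher by 4.28) it was 7.48 without the top cell of each library, 0.43 (without control replicate 1) to 8.13 (without control replicate 2) with 1 library left out, and reversed to -2.12 without the gate, and the cause was not tested.

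Counts of genes past the test moved widely with 2 libraries a group. At E15.5 the count of 0 became 1 without the filter on low counts, 140 with DESeq2 and 1 to 7015 with 1 library left out, the highest without the mosaic MOF cKO replicate 6. At E16.5 the count of 578 became 2007 without the filter, 257 and 1209 with gates of 5 and 20 UMIs, 316 with a 5% mitochondrial limit, 1408 in strict keratinocytes and 39 to 1112 with 1 library left out. The study used pairs with littermate controls but ties no replicate number to a litter in the sources used here. The 2 pairs of E16.5 replicates were therefore not treated as paired. The correlation of their deviations was -0.02. With 2 libraries a group, both pairs necessarily give the same value, so it cannot show that pairing was absent. A fit with the replicate block called 549 genes. The E15.5 groups share no replicate number. Dsc2 and Tgm3 kept their calls in 13 of 13 settings, while Krt17 lost its call in 3, Ovol1 in 4 and Lhx2 in 5, with no change of direction. Depth limits the E16.5 MOF cKO libraries most, where 30 and 39 cells cannot show a keratin member below several CPM.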
